A study of Homo sapiens with 30 samples.

Results

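The 10 genes described here encode calponins (CNN1, CNN2, CNN3), cytoplasmic actins (ACTB, ACTG1), transgelins (TAGLN, TAGLN2) and 3 further proteins of actin filaments and their anchors (MYL9, TPM1, VCL). They were taken from the deposited count matrix by gene symbol, and all 10 were found among its 58780 genes and among the 22919 genes that passed the filter on low counts. No measured value enters that rule, but the symbols were chosen by their names with earlier results of these libraries in view, and which values weighed in that choice is not recorded. Each adjusted p below therefore describes 1 gene in 1 comparison, and none is offered as support for the group. The label of the set was checked only against names and promoter sequence: no file measures SRF binding.

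Nascent transcription was measured by PRO-seq, in which engaged RNA polymerases of nuclei or permeabilised cells add biotin-labelled nucleotides to the RNA they are making. The cells were A549, an established human lung adenocarcinoma line, in 30 samples. There were 15 groups of 2 libraries, and all treatments were applied in 0.01% DMSO. Dexamethasone (Dex), a synthetic glucocorticoid, was used at 100 nM, and the inhibitors GSK591 (of PRMT5, a type II arginine methyltransferase) and MS023 (of type I arginine methyltransferases) at 1 µM each. The groups were untreated cells, labelled with a time of 15 min; Dex for 15 min or 3 h; Dex for 3 h together with GSK591 or with MS023; GSK591 or MS023 for 2, 4 or 7 days; and 7 days of either inhibitor, after which Dex was given for 15 min or 3 h. The labels do not say that the 2 libraries of a group came from separate cultures, so the p-values measure the spread between these samples, which may be technical. In such bulk samples a change in the make-up of the culture and a change in transcription per cell cannot be told apart. The labels give no untreated cells of 3 h or of 2, 4 or 7 days. In comparisons with untreated cells, treatment and time in culture therefore cannot be told apart.

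Actin exists as free monomers and as filaments, and the balance between them is read by the cell. Free actin holds the coactivators MRTFA and MRTFB in the cytoplasm. When monomers are drawn into filaments, these coactivators enter the nucleus and bind serum response factor (SRF), which recognises a short AT-rich element called the CArG box. Many SRF targets encode actin itself and proteins that bind it, so the pathway adjusts the supply of its own cytoskeleton. SRF also works with the ternary complex factors ELK1, ELK3 and ELK4, through which growth factor signals reach immediate early genes. Calponins and transgelins are related actin-binding proteins, tropomyosin runs along the filament, MYL9 is a regulatory light chain of myosin II, and vinculin links filaments to integrin adhesions.

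By GENCODE 29 on GRCh38, the counted genes lie as follows. The calponin genes are CNN1 (ENSG00000130176.7) at chr19:11538717-11550323 on the plus strand, CNN2 (ENSG00000064666.14) at chr19:1026581-1039068 on the plus strand and CNN3 (ENSG00000117519.15) at chr1:94896949-94927278 on the minus strand. The actin genes are ACTB (ENSG00000075624.14) at chr7:5527147-5563784 on the minus strand and ACTG1 (ENSG00000184009.11) at chr17:81509971-81523847 on the minus strand. The transgelin genes are TAGLN (ENSG00000149591.16) at chr11:117199321-117204782 on the plus strand and TAGLN2 (ENSG00000158710.14) at chr1:159918107-159925732 on the minus strand. The myosin light chain and tropomyosin genes are MYL9 (ENSG00000101335.9) at chr20:36541484-36551447 on the plus strand and TPM1 (ENSG00000140416.20) at chr15:63042632-63071915 on the plus strand, and vinculin is VCL (ENSG00000035403.17) at chr10:73995193-74121363 on the plus strand.

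RefSeq promoter windows, from 250 bases before to 50 bases after the annotated start in GRCh38.p14, were found for 7 of the 10 genes and for SRF. A CArG box, searched for on both strands, lay in the windows of CNN2 and ACTG1. It was also found in 454 of the 35116 windows in the table, or 1.29%. The boxes of these 2 genes and those of SRF are printed as a description, and their part in the results was not tested. Each runs 5′ to 3′ on the strand of the gene, with the CArG box in capitals.
CNN2, chr19:1026494-1026543, plus strand: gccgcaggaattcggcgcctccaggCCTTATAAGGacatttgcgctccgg
ACTG1, chr17:81512869-81512918, minus strand: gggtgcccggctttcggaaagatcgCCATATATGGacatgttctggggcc
SRF, chr6:43171214-43171268, plus strand: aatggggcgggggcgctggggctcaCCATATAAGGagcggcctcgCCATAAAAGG
The box began 89 bases before the start of CNN2 and 94 bases before that of ACTG1. SRF carried 2 boxes, which began 30 and 10 bases before its start. A match of letters is a description and not a site of binding, and the windows of CNN1, CNN3, TAGLN2, TPM1 and VCL held no such letters. ACTB, TAGLN and MYL9 had no entry in the promoter table.

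Library totals ran from 8441211 to 13069598 counts, with a median of 10141639.5. Mitochondrial genes took 58.7% to 78.7% of them, which left 2541528 to 3957508 nuclear counts per library and 4210 to 8731 counts over the 10 genes together. The mitochondrial share was 58.7% to 64.2% in the 6 libraries with 7 days of MS023 and 73.4% to 76.0% in the untreated ones. Its part in the results was not tested, except that removing mitochondrial and ribosomal RNA genes changed no call on the 10 genes. The 2 libraries of Dex with MS023 correlated least (Pearson r = 0.923 over 11117 genes, against 0.959 to 0.983 in the other groups), and replicate 2 had the highest share of processed pseudogene reads, 2.01% of nuclear counts against 1.24% to 1.59% elsewhere. Epithelial markers (KRT7, KRT8, KRT18, KRT19, EPCAM, CDH1, MUC1) summed to 391 to 1123 CPM and smooth muscle and fibroblast markers to 15.0 to 26.3 CPM, with 3 of the latter 10 under 1 CPM in all libraries. Blood cell markers summed to 1.04 to 6.02 CPM and endothelial markers to 0.208 to 2.24 CPM, and no marker was at 0 in every library.

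Levels are CPM, counts scaled to the size of each library by the TMM method, and only levels per kilobase of annotated exon are set between genes. Whether reads over introns were counted is not given in the sources used here. If they were, the order of the genes could differ, and this was not tested. In untreated cells ACTG1 stood highest at 74.3 and 76.5 CPM per kb in the 2 libraries, followed by ACTB at 36.0 and 36.4 and TAGLN2 at 16.4 and 17.3. TPM1 had 9.55 and 8.40 CPM per kb. These 4 genes kept separate ranges. CNN3 (3.10 and 3.23) and VCL (3.12 and 2.92) overlapped, as did TAGLN (1.48 and 1.36) and CNN2 (1.40 and 1.30). MYL9, with 0.513 and 0.286 CPM per kb, and CNN1, with 0.154 and 0.454, stood lowest and overlapped too. Both are typical of smooth muscle, and their raw counts were 2 to 33 and 2 to 23 per library, so differences in them were poorly resolved. Group means of MYL9 spanned 5.50-fold, those of CNN2 4.02-fold, TPM1 3.41-fold, CNN1 3.26-fold, VCL 3.25-fold, TAGLN2 2.58-fold, ACTB 2.44-fold, ACTG1 2.12-fold, TAGLN 2.03-fold and CNN3 1.89-fold.

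**Figure D1:**
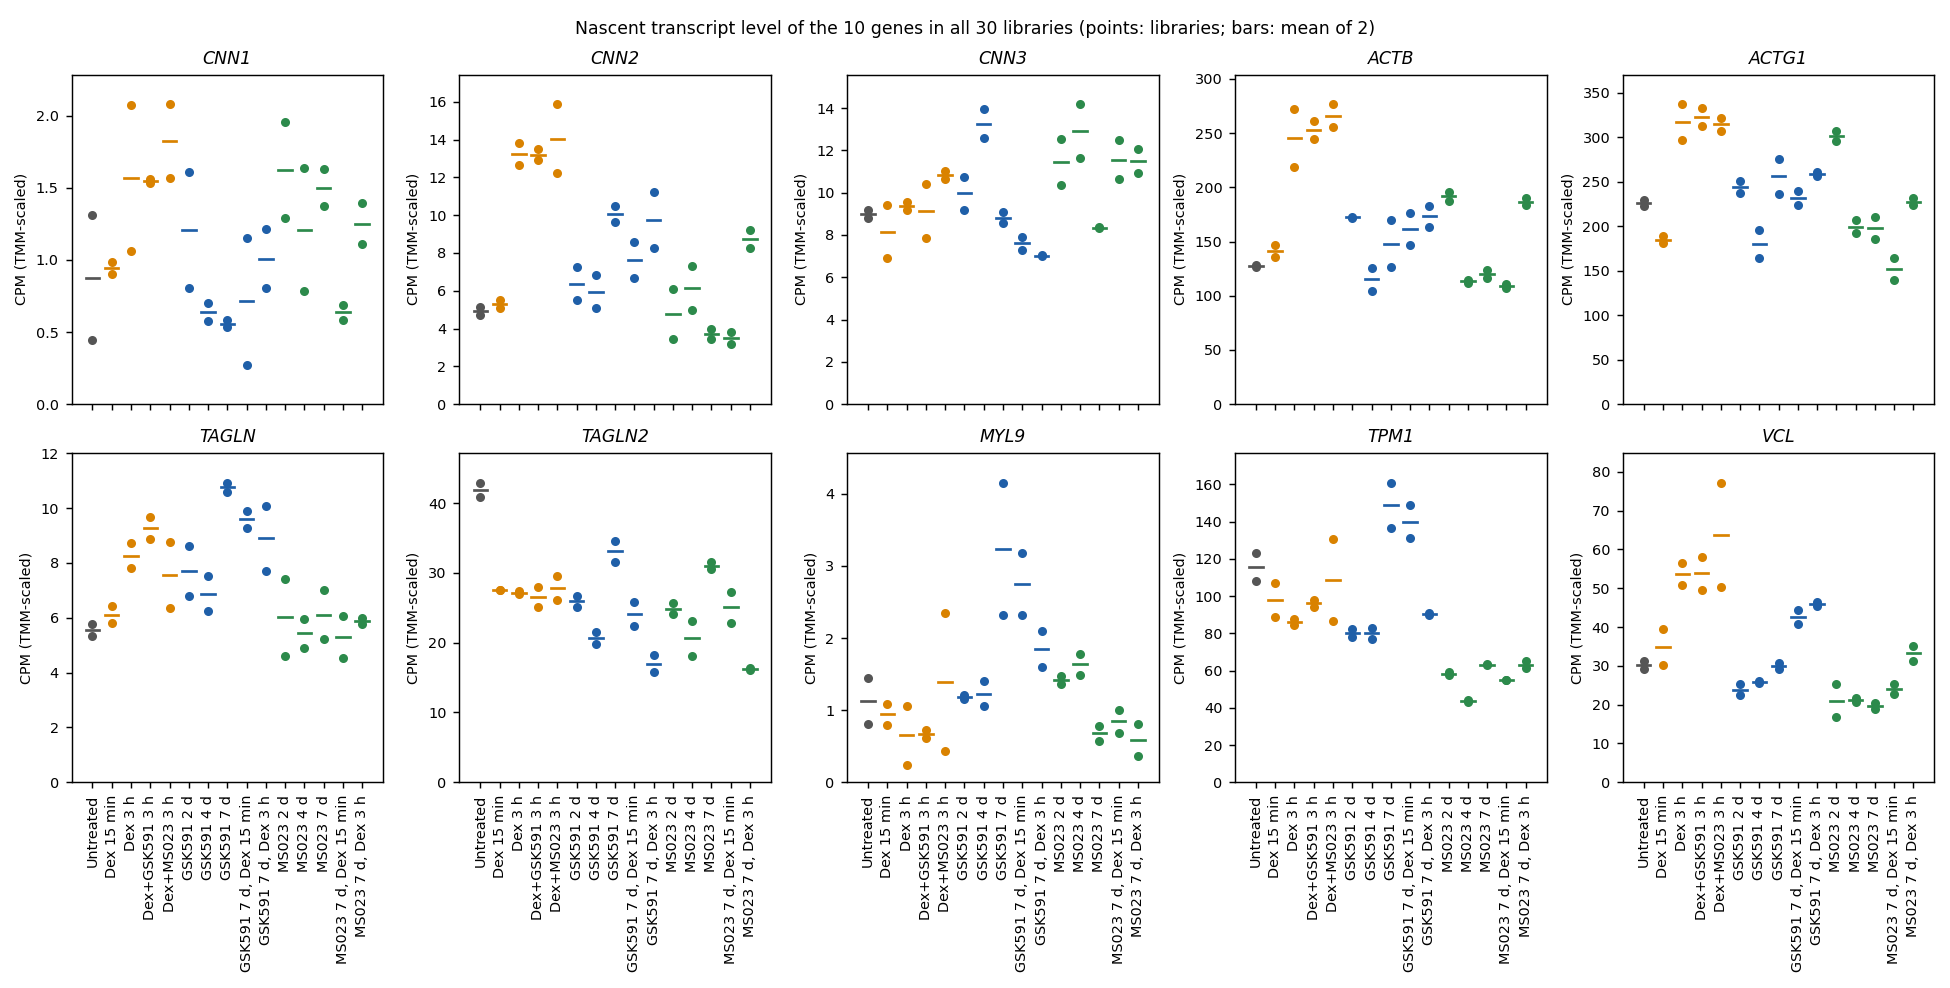
Level of each gene in TMM-scaled CPM (linear axis from 0) in the 15 groups; points are the 2 libraries of a group and bars their mean, in grey for untreated cells, orange for Dex without long pretreatment, blue for GSK591 and green for MS023. CNN2, ACTB, ACTG1 and VCL are high in the 3 orange groups with 3 h of Dex, TAGLN2 is highest in untreated cells, and TPM1 is lowest in the green groups.

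At 3 h of Dex, transcription of CNN2, ACTB, VCL and ACTG1 rose, and that of TAGLN2 and TPM1 fell. The 6 called genes compare with 10.5% of all genes tested, where called means an adjusted p below 0.05 in the edgeR quasi-likelihood test, adjusted by Benjamini-Hochberg over all genes. The median log2 fold change of the 10 genes was 0.53, against -0.01 over all genes. With total counts as the only scaling 4 were called, all higher, and the falls of TAGLN2 and TPM1 were not. Under that scaling 1259 of all 22919 genes were called, 81.9% of them higher. The epithelial markers summed to 987 and 920 CPM over 7 genes at 3 h, against 594 and 585 CPM untreated. Of these 7, 4 were called higher and 1 lower. KRT7, KRT8 and KRT18 had the highest levels among them, with medians of 232, 223 and 106 CPM over all libraries. The part of these markers in the results was not tested. After 15 min of Dex only TAGLN2 was called, beside 1.26% of all genes. The comparisons with untreated cells that follow all use the same 2 untreated libraries.

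The calponin CNN2 changed most at 3 h. It had 5.12 and 4.74 CPM in untreated cells and 12.6 and 13.8 CPM with Dex, a log2 fold change of 1.42 ± 0.23 (SE, 2 libraries per group; edgeR adjusted p = 6.14e-06). The groups were far apart, while at 15 min, with 5.53 and 5.10 CPM, CNN2 still overlapped the untreated range. CNN3, the calponin of non-muscle cells, had 9.57 and 9.16 CPM against 8.79 and 9.17 and was not called. CNN1, the smooth muscle calponin, had 1.06 and 2.08 CPM against 0.445 and 1.31, with overlapping groups, and was called in none of the 19 comparisons made under this scaling.

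Both cytoplasmic actins rose at 3 h. ACTB went from 127 and 128 CPM to 219 and 273 CPM (log2 fold change 0.95 ± 0.11, adjusted p = 9.83e-09). ACTG1 went from 222 and 229 CPM to 297 and 337 CPM (0.49 ± 0.10, adjusted p = 0.00054). At 15 min the 2 actins had stood on opposite sides of the untreated range, ACTB at 146 and 136 CPM and ACTG1 at 188 and 181 CPM, and neither was called. Reads could be shared with processed pseudogenes, which in the table carried 8.06% as many counts as ACTG1 (21 copies), 1.92% as many as ACTB (9 copies) and 8.52% as many as CNN2 (11 copies).

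Vinculin rose with the actins: VCL had 31.1 and 29.2 CPM in untreated cells and 50.9 and 56.5 CPM at 3 h (0.83 ± 0.16, adjusted p = 0.0007). At 15 min its libraries, at 30.2 and 39.4 CPM, overlapped the untreated ones. The calls on CNN2, ACTB, ACTG1 and VCL at 3 h held under all 7 alternative settings and with any 1 library left out. TAGLN2, a transgelin found outside muscle, moved the other way and early. It had 40.8 and 42.9 CPM in untreated cells, 27.5 and 27.6 CPM at 15 min (-0.60 ± 0.12, adjusted p = 0.00182) and 27.0 and 27.4 CPM at 3 h (-0.62 ± 0.12, adjusted p = 0.000246). Untreated cells were thus the highest of all 15 groups for TAGLN2, so its differences share 1 high pair of control libraries. Without untreated replicate 2 or Dex 15 min replicate 1, the 15 min call was lost (adjusted p up to 0.0614), as it was with total counts as the only scaling (-0.28, adjusted p = 0.543).

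TPM1, which encodes a tropomyosin, had 123 and 108 CPM in untreated cells and 87.7 and 84.7 CPM at 3 h of Dex (-0.42 ± 0.12, adjusted p = 0.0143). That call was lost with DESeq2 and without untreated replicate 1 or either Dex library (adjusted p up to 0.215). TAGLN, the smooth muscle transgelin, had 8.72 and 7.81 CPM against 5.78 and 5.34, separate ranges that were not called (0.58 ± 0.23, adjusted p = 0.103). MYL9 had 1.06 and 0.244 CPM against 1.45 and 0.806, with overlap. TPM1, TAGLN, VCL and CNN2 each overlap an annotated gene on the opposite strand, and whether reads were counted by strand is not given in the sources used here.

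**Figure D2:**
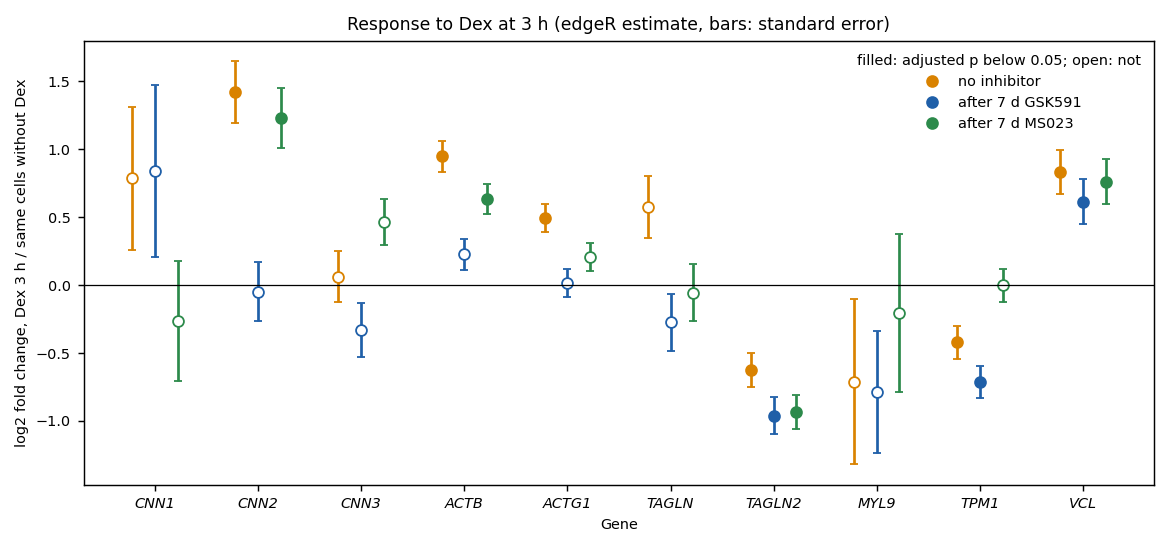
Log2 fold change at 3 h of Dex (y axis, ± SE) for each gene without inhibitor (orange), after 7 days of GSK591 (blue) and after 7 days of MS023 (green); filled points have an adjusted p below 0.05 and open points do not. CNN2 and ACTB sit at 1.42 and 0.95 without inhibitor and at -0.05 and 0.23 after GSK591, while TAGLN2 is below 0 and VCL above 0 in all 3 settings.

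Adding an inhibitor only for the 3 h of Dex left the 10 genes uncalled. With GSK591 and Dex against Dex alone, edgeR and DESeq2 called 0 of the 10, and an unadjusted p under 0.05 was reached by 0 of them and by 1306 of all genes, of which 0% were called. CNN2, for example, had 13.5 and 12.9 CPM with both agents and 12.6 and 13.8 CPM with Dex alone, and ACTB 244 and 261 against 219 and 273. The difference for CNN2 was 0.00 with an SE of 0.20 and that for ACTB 0.04 with an SE of 0.11. With MS023 and Dex, 0 of the 10 were called by either tool, 1 had an unadjusted p under 0.05, and 0.196% of all genes were called. Here VCL had 50.4 and 77.2 CPM and TPM1 86.7 and 130.4 CPM, with replicate 2 the higher in both. Without replicate 1 of that group, so with the library of many pseudogene reads alone, MYL9 (1.76), TPM1 (0.59) and VCL (0.51) were called, and without replicate 2 none was.

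Over 2, 4 and 7 days of GSK591 the genes changed at different times and in different directions. At 2 days ACTB rose and TAGLN2 and TPM1 fell, 3 calls beside 5.64% of all genes. At 4 days CNN3 rose and ACTG1, TAGLN2 and TPM1 fell, 4 calls beside 17.2%, although ACTG1 stood at 0.083 with total counts as the only scaling. At 7 days CNN2, TAGLN, MYL9 and TPM1 rose and none fell, 4 calls beside 13.2%. The median over the 10 genes was 0.13, -0.18 and 0.20 at the 3 times, against medians over all genes within 0.01 of 0. With total counts as the only scaling, 1 was higher and 0 lower at 2 days, 1 higher and 1 lower at 4 days, and 2 higher and 0 lower at 7 days. Calls over all 22919 genes under that scaling were 984, 4631 and 1135 at the 3 times.

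TPM1 crossed the untreated level during this course. It had 78.1 and 82.2 CPM at 2 days (-0.53 ± 0.12, adjusted p = 0.00469), 77.0 and 83.0 CPM at 4 days (-0.53 ± 0.12, adjusted p = 0.00108), and 136 and 161 CPM at 7 days (0.36 ± 0.12, adjusted p = 0.0312), against 123 and 108 CPM in untreated cells. The first 2 times lay below the untreated range and the last above it. The 2-day call was lost without untreated replicate 1 or GSK591 replicate 1 (adjusted p up to 0.114). The 7-day call was lost with DESeq2 and without untreated replicate 2 or GSK591 replicate 2 (0.24 to 0.47 on the log2 scale, adjusted p up to 0.350).

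The late rise was largest in MYL9, though from few reads. It had 1.45 and 0.806 CPM in untreated cells, 1.21 and 1.15 CPM at 2 days, 1.06 and 1.40 CPM at 4 days, and 2.32 and 4.15 CPM at 7 days (1.51 ± 0.48, adjusted p = 0.0263). Leaving out untreated replicate 2 or GSK591 7 d replicate 2, or using DESeq2, ended that call, with log2 values of 1.05 to 1.97. CNN2 was more stable: 5.51 and 7.24 CPM, then 5.09 and 6.82 CPM, then 10.5 and 9.65 CPM at 7 days (1.03 ± 0.24, adjusted p = 0.00167). TAGLN had 10.9 and 10.6 CPM at 7 days, its highest group, against 5.78 and 5.34 CPM untreated (0.95 ± 0.22, adjusted p = 0.00218). The 7-day calls on CNN2 and TAGLN held under all 7 alternative settings and every left-out library. The sum of the 10 smooth muscle and fibroblast markers was also highest in this group, at 26.3 and 25.7 CPM against 21.1 and 20.5 CPM untreated. Of the 6 that were tested, 1 was called higher and none lower, a share near the 13.2% of all genes called. MYH11, with a median of 9.89 CPM over all libraries, had the highest level of the 10 and overlaps NDE1 on the opposite strand. The part of these markers in the results was not tested.

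The actins had moved earlier. ACTB had 172 and 173 CPM at 2 days of GSK591 (0.44 ± 0.11, adjusted p = 0.0137), 105 and 126 CPM at 4 days and 127 and 169.5 CPM at 7 days. The 2-day call was lost without any of its 4 libraries (adjusted p up to 0.115), although the log2 value stayed at 0.43 to 0.45. ACTG1 had 237 and 250.3 CPM at 2 days, 164 and 195 CPM at 4 days (-0.33 ± 0.10, adjusted p = 0.0204) and 236 and 275 CPM at 7 days. That call was lost without either untreated library or GSK591 4 d replicate 1 (adjusted p up to 0.325). CNN3 had 12.6 and 13.9 CPM at 4 days (0.56 ± 0.18, adjusted p = 0.0204), its highest group, and the call was lost with DESeq2 and without any of its 4 libraries (adjusted p up to 0.159). TAGLN2 had 26.8 and 25.1 CPM at 2 days (-0.69 ± 0.13), 19.8 and 21.6 CPM at 4 days (-1.02 ± 0.13, adjusted p = 2.54e-08) and 31.6 and 34.6 CPM at 7 days (-0.34 ± 0.12, adjusted p = 0.0551).

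Relative to most genes, TPM1 fell at every time of MS023. TPM1 had 57.6 and 59.0 CPM at 2 days (-0.99 ± 0.12, adjusted p = 8.27e-08), 42.9 and 44.2 CPM at 4 days (-1.41 ± 0.12, adjusted p = 4.03e-12) and 63.5 and 63.0 CPM at 7 days (-0.87 ± 0.12, adjusted p = 6.18e-07). All 6 libraries lay below the untreated 123 and 108 CPM, and these calls held with any 1 library left out. At 2 days ACTB and ACTG1 rose and TAGLN2 and TPM1 fell, 4 calls beside 10.4% of all genes. At 4 days CNN3 rose and TAGLN2, TPM1 and VCL fell, 4 calls beside 14.2%. At 7 days TAGLN2, TPM1 and VCL fell and none rose, 3 calls beside 13.6%, with a median over the 10 genes of -0.30 against 0.01 over all genes.

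These MS023 results carry a limit of scale. With total counts as the only scaling, the median of all genes itself moved by 0.68, 0.74 and 1.02 at 2, 4 and 7 days, and the falls at 7 days became values of 0.16 for TPM1, 0.40 for VCL and 0.58 for TAGLN2, as that of VCL at 4 days became 0.24. Relative to that median gene the 7-day values were -0.86 for TPM1, -0.62 for VCL and -0.44 for TAGLN2. Under that scaling 5, 6 and 6 of the 10 genes were called higher at the 3 times and 0, 1 and 0 lower. CNN1 was among the higher at 2 days (1.51) and 7 days (1.74). Of all 22919 genes tested, 9228, 11285 and 16196 were called under that scaling, with 99.2%, 99.0% and 99.5% of these calls higher. Among the 10 genes, the 1 lower call under that scaling was TPM1 at 4 days (-0.65, adjusted p = 0.0117). The other falls with MS023 are shown only relative to most nuclear genes.

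VCL had 16.7 and 25.3 CPM at 2 days of MS023 (-0.52 ± 0.17, adjusted p = 0.051), 21.7 and 20.6 CPM at 4 days (-0.51 ± 0.17, adjusted p = 0.0396) and 20.3 and 18.9 CPM at 7 days (-0.62 ± 0.17, adjusted p = 0.0128). All 6 values were below the untreated 31.1 and 29.2 CPM. The 4-day call was lost with DESeq2, with DESeq2 size factors in edgeR and without any of its 4 libraries (adjusted p up to 0.213). The 7-day call was lost without untreated replicate 1 or either MS023 library (adjusted p up to 0.129), and the 2-day value was called without MS023 2 d replicate 2 (-0.86) and with the replicate number as a block (adjusted p = 0.025).

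The actins rose early under MS023. ACTB had 188 and 196 CPM at 2 days (0.59 ± 0.11, adjusted p = 0.000262), 112 and 114 CPM at 4 days and 124 and 117 CPM at 7 days. ACTG1 had 295 and 307 CPM at 2 days (0.42 ± 0.10, adjusted p = 0.0046), 192 and 206 CPM at 4 days and 210.0 and 185 CPM at 7 days. Both were thus above the untreated range at 2 days and below it at 4 and 7 days, where neither was called. The 2-day call on ACTG1 was lost without untreated replicate 1 or MS023 replicate 2 (adjusted p up to 0.0723). CNN3 had 11.7 and 14.2 CPM at 4 days (0.52 ± 0.17, adjusted p = 0.0318), a call lost with DESeq2 and without either untreated library or MS023 replicate 2 (adjusted p up to 0.322). TAGLN2 had 25.6 and 24.1 CPM, then 23.2 and 18.2 CPM, then 30.5 and 31.6 CPM at 7 days (-0.43 ± 0.12, adjusted p = 0.00912). The 7-day call was lost with DESeq2 and without untreated replicate 2 or either MS023 library (adjusted p up to 0.104).

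**Figure D3:**
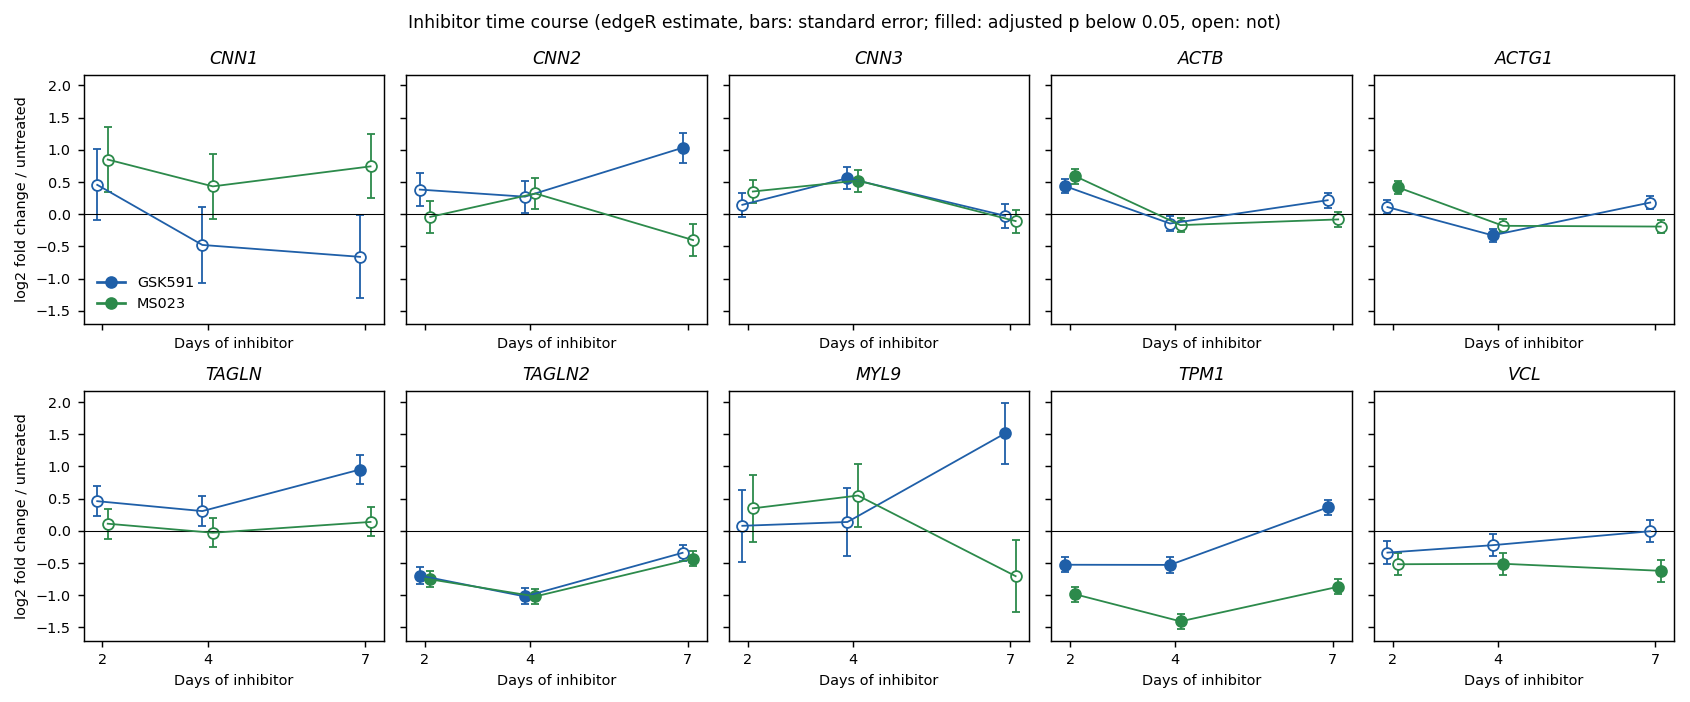
Log2 fold change against untreated cells (y axis, ± SE) at 2, 4 and 7 days of GSK591 (blue) or MS023 (green); filled points have an adjusted p below 0.05. Both lines for TAGLN2 run together and below 0 (at 7 days of MS023, TAGLN2, TPM1 and VCL are above 0 with total counts as the only scaling), those for TPM1 separate from -0.53 and -0.99 at 2 days to 0.36 and -0.87 at 7 days, and MYL9 and CNN2 part at 7 days.

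Set directly against each other, the inhibitors differed mainly at 7 days. TPM1 was higher with GSK591 at 2 days (0.46 ± 0.12, adjusted p = 0.0249) and at 4 days (0.88 ± 0.12, adjusted p = 1.07e-06), the only call among the 10 at each time, beside 2.69% and 6.03% of all genes. The 2-day call was lost with DESeq2 and without any of its 4 libraries (adjusted p up to 0.218), and neither held with total counts as the only scaling. At 7 days 6 of the 10 were higher with GSK591 and none lower. The shares called were 9.38% of all genes and 13.6% of those with a mean of at least 5 CPM. The median over the 10 was 0.49 against -0.03 over all genes. CNN2 had 10.5 and 9.65 CPM with GSK591 and 3.97 and 3.47 CPM with MS023 (1.43 ± 0.23, adjusted p = 1.34e-05). TPM1 had 136 and 161 CPM against 63.5 and 63.0 CPM (1.23 ± 0.12, adjusted p = 1.56e-10). The ranges did not overlap for either gene.

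MYL9, at 2.32 and 4.15 CPM with GSK591 and 0.779 and 0.579 CPM with MS023, differed by 2.22 ± 0.48 (adjusted p = 0.00125), TAGLN by 0.81 ± 0.21, VCL by 0.61 ± 0.17 and ACTG1 by 0.37 ± 0.10. Single libraries decided some of these. The MYL9 call was lost without GSK591 replicate 2 (adjusted p = 0.0817). The TAGLN call was lost without GSK591 replicate 1 or MS023 replicate 2, the ACTG1 call without GSK591 replicate 2, MS023 replicate 2 or the filter on low counts (for the last, adjusted p = 0.0552), and the VCL call without any of the 4 libraries (adjusted p up to 0.165, 0.285 and 0.167). With total counts as the only scaling the median of all genes moved by -1.07, and relative to it CNN2 stood at 1.46, TPM1 at 1.24 and MYL9 at 2.21. Not set against that median, total count scaling turned the sign for ACTG1 (-0.69), TAGLN (-0.23) and VCL (-0.43). Of the genes described here, it called 1 higher with GSK591, MYL9, and 5 lower. Of all 22919 genes tested, 16029 were called under that scaling, with 0.605% of these calls higher with GSK591. The 5 lower calls thus go with a shift of most genes. Values under that scaling rest on shares of all counts, mitochondrial ones included, and are not amounts per cell. TAGLN2 differed by 0.09 under TMM scaling, with an interval of 2 SE from -0.15 to 0.33, and by -0.96 with total counts as the only scaling (adjusted p = 0.000105).

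After 7 days of GSK591, CNN2 and ACTB were not called at 3 h of Dex, while VCL rose and TAGLN2 and TPM1 fell. These 3 calls stand beside 9.85% of all genes and 14.4% of those with a mean of at least 5 CPM. The median over the 10 genes was -0.16 against 0.00 over all genes. VCL and TAGLN2 were still called with total counts as the only scaling, and TPM1 was not. The sum of the 7 epithelial markers went from 505 and 514 CPM to 678 and 756 CPM, with 4 called higher and 1 lower. Their part was not tested. CNN2 had 10.5 and 9.65 CPM before and 8.27 and 11.2 CPM after Dex (-0.05 ± 0.22), with overlap, at a level between that of untreated cells and that of Dex alone. ACTB had 127 and 169.5 CPM before and 164 and 183 CPM after (0.23 ± 0.11, adjusted p = 0.233), again with overlap. It was called without GSK591 7 d replicate 2 (0.44, adjusted p = 0.0337). VCL went from 29.3 and 30.8 CPM to 46.4 and 45.5 CPM (0.61 ± 0.17, adjusted p = 0.0151), TPM1 from 136 and 161 CPM to 91.0 and 90.1 CPM (-0.72 ± 0.12, adjusted p = 1.63e-05) and TAGLN2 from 31.6 and 34.6 CPM to 15.8 and 18.2 CPM (-0.96 ± 0.13, adjusted p = 3.14e-07). The VCL call was lost without any of its 4 libraries (adjusted p up to 0.135). At 15 min of Dex TAGLN2 alone was called (25.8 and 22.4 CPM, -0.46 ± 0.13, adjusted p = 0.0409), beside 2.09% of all genes. It was lost with DESeq2, without a filter on low counts, with total counts as the only scaling (adjusted p = 0.739), in the fit of its own groups and without either GSK591 7 d library or replicate 2 with Dex (adjusted p up to 0.489).

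The difference between the responses was tested as an interaction, the log2 response to Dex after 7 days of GSK591 minus that without inhibitor. It was called for CNN2 (-1.47 ± 0.32, adjusted p = 0.0195) and ACTB (-0.72 ± 0.16, adjusted p = 0.0265), 2 of the 10 beside 0.223% of all genes. Both responses were thus smaller after GSK591. The starting points differed as well: CNN2 was higher after 7 days of GSK591 than in untreated cells, at 10.1 CPM on average against 4.93 CPM, and the level after Dex was 9.75 CPM against 13.2 CPM. ACTG1 (-0.48 ± 0.15, adjusted p = 0.189) and TAGLN (-0.85 ± 0.31, adjusted p = 0.33) pointed the same way without a call. The CNN2 interaction was lost with DESeq2, and without 6 of its 8 libraries, all but Dex 3 h replicate 1 and GSK591-then-Dex replicate 2 (-1.71 to -1.27, adjusted p up to 0.122). The ACTB interaction was lost in the fit of its own groups, and without either untreated library, Dex 3 h replicate 2, GSK591 7 d replicate 2 or GSK591-then-Dex replicate 1 (-0.92 to -0.50, adjusted p up to 0.325). Scaled by total counts alone, no gene in the table was called, and the values were -1.46 for CNN2 and -0.68 for ACTB.

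After 7 days of MS023, 3 h of Dex raised CNN2, ACTB and VCL and lowered TAGLN2. These 4 calls stand beside 11.1% of all genes and 15.8% of those with a mean of at least 5 CPM. CNN2 and TAGLN2 were still called with total counts as the only scaling, and ACTB and VCL were not. The sum of the 7 epithelial markers went from 430 and 421 CPM to 789 and 825 CPM, with 4 called higher and 2 lower. Their part was not tested. CNN2 went from 3.97 and 3.47 CPM to 8.28 and 9.23 CPM (1.23 ± 0.22, adjusted p = 5.03e-05). ACTB went from 124 and 117 CPM to 190.0 and 183 CPM (0.63 ± 0.11, adjusted p = 3.67e-05), and VCL from 20.3 and 18.9 CPM to 35.2 and 31.3 CPM (0.76 ± 0.16, adjusted p = 0.0017). In none of these did the groups overlap. The VCL call was lost without MS023 7 d replicate 2 (adjusted p = 0.0511). TAGLN2 went from 30.5 and 31.6 CPM to 16.1 and 16.4 CPM (-0.93 ± 0.12), the lowest group for that gene. TPM1 stood at 64.9 and 61.5 CPM, overlapping its level before Dex. At 15 min ACTG1 alone was called (139.9 and 165 CPM against 210.0 and 185 CPM, -0.38 ± 0.10, adjusted p = 0.0355), beside 2.07% of all genes, and was lost without either MS023 7 d library or replicate 1 with Dex (adjusted p up to 0.577) and with total counts as the only scaling (adjusted p = 0.471).

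The interaction of MS023 with Dex at 3 h was called for 0 of the 10 genes by edgeR and by DESeq2, and 2 had an unadjusted p under 0.05, beside 0.223% of all genes called. For CNN2 it was -0.19 with an interval of 2 SE from -0.84 to 0.46, and for ACTB -0.31 with an interval from -0.63 to 0.00. That such a p misses the threshold does not show that the responses were alike. The responses after GSK591 and after MS023 are set against the same Dex and untreated libraries.

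SRF itself was transcribed at 9.63 to 20.1 CPM over the 30 libraries. It was higher with GSK591 at 2 days (0.65 ± 0.17, adjusted p = 0.0144) and 7 days (0.72 ± 0.17, adjusted p = 0.00223) and fell when Dex followed 7 days of GSK591, at 15 min (-0.64 ± 0.17, adjusted p = 0.0291) and at 3 h (-0.69 ± 0.17, adjusted p = 0.00386). It was not called at 3 h of Dex alone (0.29 ± 0.17), and its interaction of -0.99 ± 0.24 missed the threshold (adjusted p = 0.0642). Over the 15 group means, the correlation of SRF with the 10 genes ran from -0.12 (VCL) to 0.48 (ACTG1), values given as a description. Of its cofactors, MRTFA fell at 7 days of GSK591 (-0.45). MRTFB fell at 4 days of GSK591 (-0.56), where it was also lower than with MS023 (-0.56), and rose at 3 h of Dex after GSK591 (0.63) and after MS023 (0.49). ELK4 rose at 2 days of GSK591 (0.65) and of MS023 (0.72). MYOCD, a cofactor of heart and smooth muscle, fell at 3 h of Dex (-2.64) and at 7 days of MS023 (-1.74) and rose at 4 days of GSK591 (1.00), where it was also higher than with MS023 (1.51), on 1 to 67 counts per library. It fell at 3 h of Dex after GSK591 (-2.07). ELK1 rose with Dex after GSK591 (0.62), and ELK3 was called in none of the comparisons.

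A list of 25 other cytoskeletal targets of MRTF and SRF, of which 23 were tested, gives the wider picture. At 3 h of Dex 6 rose and 3 fell, beside 10.5% of all genes and 16.2% of those with a mean of at least 5 CPM. Of those with a mean of at least 5 CPM, ITGA5, an integrin subunit (1.28), and ANKRD1 (1.23) rose most, and PDLIM7 (-0.94) and TUFT1 (-0.67) fell most. DESeq2 called 4 of the list in place of 9. At 4 days of GSK591 none rose and 6 fell, among them ANKRD1 (-0.82) and TPM4, a tropomyosin gene (-0.67). That is a share near the 25.2% of genes called at a mean of at least 5 CPM, beside 17.2% of all genes. At 7 days of GSK591 9 rose and none fell, with ANKRD1 (1.29) and the secreted matrix protein CCN2 (1.27). This stands beside 13.2% of all genes and 18.8% of those with that mean. At 4 days of MS023 0 rose and 10 fell, beside 14.2% of all genes and 19.6% of those with that mean. Among them were CALD1, which encodes the actin-binding caldesmon (-1.26), and ANKRD1 (-1.18). At 7 days of MS023 2 rose and 7 fell, with PDLIM7 at -1.45, CALD1 at -1.33 and CCN2 at 1.32. The shares called were 13.6% of all genes and 18.2% of those with that mean. GSK591 against MS023 at 7 days had 13 higher and none lower, beside 9.38% of all genes and 13.6% of those with that mean. PDLIM7 stood at 2.02, CALD1 at 1.40 and the list median at 0.61, against -0.03 over all genes. As for the 10 genes, these MS023 differences are relative to the typical gene.

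Immediate early targets of SRF and the ternary complex factors, 8 of which were tested, did not share one direction at 3 h of Dex, where 10.5% of all genes were called. DUSP1, a MAP kinase phosphatase (1.28), and JUNB (0.76) rose among 3, and the nuclear receptor NR4A1 (-1.40) and IER2 (-0.84) fell. At 7 days of GSK591 3 rose and 1 fell, beside 13.2% of all genes, including the transcription factor FOS (0.54) and NR4A1 (-1.29). At 2 days of MS023 6 rose and none fell, beside 10.4%, including NR4A1 (0.73) and IER2 (0.59), and the list median was 0.52 against 0.00 over all genes. Of 16 focal adhesion genes, which share ZYX and TLN1 with the list of MRTF targets, 3 rose and none fell at 3 h of Dex, including VASP (0.72) and PXN, the adaptor paxillin (0.47), a share near the 16.2% of genes called at a mean of at least 5 CPM. At 7 days ZYX alone rose with GSK591 (0.70), beside 13.2% of all genes, and 4 fell with MS023, beside 13.6%, including ITGA3 (-0.99) and ACTN4 (-0.61).

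The authors' deposited tables hold their own comparison of each treated group with untreated cells and match 8 of the 10 genes. Over 14 groups the authors' deposited tables call 53 of the 112 values, edgeR called 42 of the same values, and the 39 called in both had the same sign. Of their 28873 genes, the authors' deposited tables call 1.95% (Dex 15 min) to 21.6% (Dex 3 h after GSK591). The edgeR shares over all genes, 1.26% to 17.2%, are given only for groups with Dex or an inhibitor alone. The authors' deposited tables give VCL a larger rise at 3 h of Dex, 1.36 against 0.83 by edgeR, and call it at 15 min too (0.35, adjusted p = 0.00169), where edgeR gave 0.21 without a call. For CNN2 at 3 h the authors' deposited table gives 1.42, the same as edgeR. After 7 days of GSK591 the authors' deposited table has CNN2 at 0.53 and MYL9 at 1.67, against 1.03 and 1.51 by edgeR. The mean signal of VCL is 1404 in the authors' deposited tables. VCL reached 789 counts at most in any library of the matrix, so the authors' deposited tables do not rest on the matrix as deposited. The interactions have no counterpart in the authors' deposited tables.

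**Figure D4:**
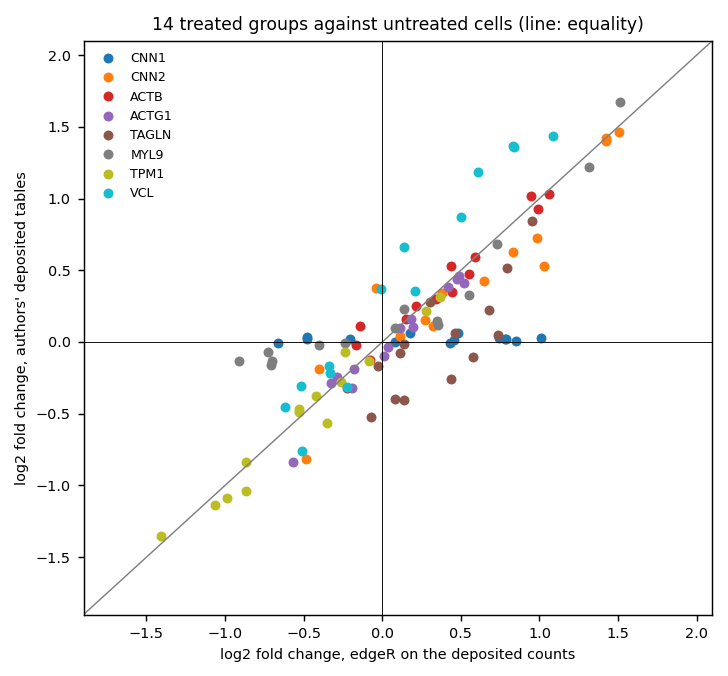
Log2 fold change against untreated cells by edgeR on the deposited counts (x axis) and in the authors' deposited tables (y axis) for 8 genes in 14 treated groups; 1 point is 1 gene in 1 group and the line marks equality. VCL lies above the line in 12 of 14 groups, with up to 1.43 on the y axis, TPM1 close to it, and CNN1, with few reads, near 0 on the y axis.

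Among 11108 candidate genes, those whose log2 level ran closest to each of the 10 over the 15 group means were found as a description of these means, which share libraries and scaling. VCL was closest to SAP30BP (r = 0.969) and NAV2 (0.961), ACTB to KMT2B (0.946) and MTMR4 (0.937), CNN2 to TTC21A (0.943) and ADPRHL1 (0.928), and ACTG1 to AMOTL2 (0.942) and KMT2B (0.937). TPM1 was closest to MAP1B (0.930), TAGLN2 to LINC00857 (0.899), MYL9 to SMTN (0.897), TAGLN to WTIP (0.893), CNN1 to USF2 (0.883) and CNN3 to SHF (0.873). Within the 10, ACTB and ACTG1 ran together (r = 0.904), as did CNN2 and VCL (0.853) and CNN2 and ACTB (0.802), while TPM1 and CNN3 ran opposite (-0.617).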

How the data were processed

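PRO-seq gene counts of 30 A549 libraries (15 groups of 2, by the sample labels) were used as deposited. The authors made the counts with featureCounts 2.0.1 of Subread on hg38, per the submitters' processing notes; the aligner, feature type, strand setting and annotation are not given in the sources used here. GENCODE 29, in which each of the 58780 identifiers was found, gave the positions and exonic lengths. The authors' deposited comparison tables give a mean signal per gene (baseMean), log2 fold changes with standard errors, and p-values with adjusted p-values, per the file headers. They were copied and not refitted.

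Counts were tested with edgeR 4.0.16 (quasi-likelihood, robust; limma 3.58.1, R 4.3.3) with TMM scaling. After filtering with filterByExpr (at least 10 counts in a library and 15 in total) 22919 genes were left. All 15 groups entered 1 fit without covariates (15 residual degrees of freedom), and p-values of the 19 comparisons were each adjusted over all genes (Benjamini-Hochberg, threshold 0.05). Error is the standard error of the log2 fold change; intervals are 2 SE either side. By exact permutation, 2 libraries against 2 cannot go below a two-sided p of 0.333. Depth, 8441211 to 13069598 counts per library, limits CNN1 and MYL9 most.

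The 10 genes and all gene lists were chosen with earlier results of these data known. By the naming rule, all 10 genes are named, as are SRF and its cofactors with each of their calls. One further gene list is not reported here. From each other list up to the 2 largest called rises and falls with a mean of at least 5 CPM are named, and up to 3 genes of most alike pattern. Promoters come from RefSeq (GRCh38.p14). Tried as alternatives were edgeR with size factors from DESeq2 or with total counts only, DESeq2 1.42.0 itself, no filter, fits restricted to the groups compared, the replicate block, removal of mitochondrial and ribosomal RNA genes, and each library left out. The procedure was tested on simulated data.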

Additional observations from a re-analysis of the deposited data

Results flagged for a closer look

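The response to 3 h of Dex differed between cells kept in GSK591 for 7 days and cells without inhibitor, by a test of the difference itself (edgeR interaction), for CNN2 at -1.47 and ACTB at -0.72 on the log2 scale. CCN1, a secreted matrix protein on the list of other MRTF and SRF targets, differed by -1.17 ± 0.17 (SE, adjusted p = 0.00023). It was the only 1 of the 23 tested on that list to be called, beside 0.223% of all genes. With total counts as the only scaling it was not called. CCN1 rose with 7 days of GSK591 (0.99) and fell when Dex followed (-1.01), while Dex alone gave 0.16 without a call.

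With MS023 for 7 days, the same test gave TPM2, a tropomyosin gene, a difference of 1.03 ± 0.23 (adjusted p = 0.0385): it was at 0.04 with Dex alone, fell with MS023 (-1.22) and rose when Dex followed (1.08). ITGA5 differed by -1.11 ± 0.21 (adjusted p = 0.00703), with 1.28 for Dex alone and 0.17 after MS023. CCN1 differed by -0.97 ± 0.17 (adjusted p = 0.0022) and CCN2 by -0.99 ± 0.21 (adjusted p = 0.0258), and CCN1 (-0.81) and CCN2 (-0.71) both fell when Dex followed MS023. Of the 23 tested on that list, 1 was thus higher and 3 lower, beside 0.223% of all genes. None of the 10 genes was called in this interaction. With total counts as the only scaling no gene at all was called in it, and DESeq2 called 21 genes in place of 51. Groups of 2 libraries are too small for a test of outlying samples.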

How the results depend on the processing

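Of 48 calls on the 10 genes, 16 held under all 7 alternatives other than left-out libraries, 36 under all of these but total counts as the only scaling, and 24 with any 1 library left out. In 134 cases an uncalled value took another sign and stayed uncalled. A case is 1 value in 1 alternative or with 1 library left out, so a value can count more than once. Leaving out a library leaves a group with 1 sample, assumed to vary like the other groups.

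Total counts as the only scaling moved the median of all genes by 0.31 (Dex 15 min), 0.15 (Dex 3 h), 0.29, 0.42 and -0.03 (GSK591 at 2, 4 and 7 days), 0.68, 0.74 and 1.02 (MS023), 0.12 and 0.33 (Dex with GSK591 or MS023 against Dex), 0.21 (Dex 3 h after GSK591), -0.15 (Dex 15 min after MS023), -0.39, -0.33 and -1.07 (GSK591 against MS023) and -0.17 (MS023 interaction). The signs that turned were ACTG1 at 4 days of GSK591 (0.083); ACTB (0.58), ACTG1 (0.56), TAGLN (0.72) and VCL (0.24) at 4 days of MS023; CNN3 (0.91), ACTB (0.94), ACTG1 (0.83), TAGLN2 (0.58), TPM1 (0.16) and VCL (0.40) at 7 days of MS023; and CNN3 (-0.96), ACTB (-0.77), ACTG1 (-0.69), TAGLN (-0.23), TAGLN2 (-0.96) and VCL (-0.43) for GSK591 against MS023 at 7 days. Genes called of the 10 became 0 (Dex 15 min), 1, 2 and 2 (GSK591 at 2, 4 and 7 days), 7 and 6 (MS023 at 4 and 7 days), 0 (Dex 15 min after either inhibitor), 2 (Dex 3 h after MS023), 0 (GSK591 against MS023 at 4 days) and 0 (GSK591 interaction). In the same comparisons, calls over all 22919 genes were 261 (Dex 15 min), 984, 4631 and 1135 (GSK591), and 11285 and 16196 (MS023). They were 72 and 71 (Dex 15 min after GSK591 or MS023), 1007 (Dex 3 h after MS023), 1358 (GSK591 against MS023) and 0 (GSK591 interaction).

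DESeq2 called 2 at 7 days of GSK591, 2 at 4 days of MS023, 0 for Dex 15 min after GSK591, 0 for GSK591 against MS023 at 2 days and 1 for the GSK591 interaction. The fit of the compared groups alone gave 0, 2 and 1 in the last 3. It raised the other MRTF and SRF targets called at 7 days of MS023 from 9 to 14. Over all genes, counts of calls moved by over 1.5 times with DESeq2 in 15 of the 19 comparisons, for example from 2410 to 1441 at 3 h of Dex, from 3026 to 1752 at 7 days of GSK591 and from 3127 to 1693 at 7 days of MS023. With the compared groups alone they moved so in 9, and for Dex with GSK591 went from 0 to 16. Without a low-count filter they moved so in 4, for Dex with MS023 from 45 to 508 and for the GSK591 interaction from 51 to 109. The causes were not tested.

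With 1 library left out, the genes called ran from 0 to 1 (Dex 15 min), 5 to 6 (Dex 3 h), 1 to 2, 2 to 3 and 2 to 5 (GSK591 at 2, 4 and 7 days), 3 to 4, 2 to 3 and 1 to 2 (MS023), 0 to 0 and 0 to 3 (Dex with GSK591 or MS023), 0 to 1 and 2 to 3 (Dex 15 min and 3 h after GSK591), 0 to 1 and 3 to 4 (after MS023), 0 to 0, 1 to 1 and 3 to 5 (GSK591 against MS023), and 0 to 2 and 0 to 0 (interactions with GSK591 and MS023).

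Replicate numbers did not mark 1 pairing common to all groups: over 105 pairs of groups, same-numbered deviations correlated from -0.451 to 0.487 (median 0.0214), and 22 pairs exceeded 0.1. Whether some of the groups shared a batch was not tested. With the number as a replicate block, all 48 calls held, 6 of the 10 genes were still called at 3 h of Dex, all genes called for Dex with MS023 went from 45 to 114, and VCL at 2 days of MS023 was added (-0.53).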
